A study of Mus musculus with 4 samples.

Results

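The 10 genes described here write, read or erase DNA methylation and repressive histone methylation in CD8 T cells. They were chosen by symbol, and all 10 were found among the 45773 genes listed in every table. They comprised the DNA methyltransferases Dnmt1 and Dnmt3a, the maintenance factor Uhrf1, the dioxygenases Tet1, Tet2 and Tet3, the Polycomb repressive complex 2 (PRC2) subunits Ezh2, Eed and Suz12, and the heterochromatin methyltransferase Suv39h1. Of these, 9 had a mean of at least 1 TPM (a share of all transcripts in the library, corrected for transcript length) over the 4 libraries and are called measured, and 1, Tet1, did not.

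Gene expression was measured by SMART-seq, which amplifies full-length cDNA from little RNA, in 4 libraries of CD8 T cells taken from mouse tumours. The Klf4 group held PmelI cells, whose transgenic receptor recognises the melanocyte antigen gp100, transduced with Klf4. Its comparator, MigRI, held PmelI cells transduced with MigRI, the empty retroviral vector. Both were given by IV injection on day 7 to Rag2 KO hosts, which lack T and B cells of their own, bearing MC38-gp100 tumours, and GFP+ cells were isolated on day 15. The Klf4 cKO and control (WT) groups held PD1+ CD8+ tumour-infiltrating cells isolated on day 14 from MC38 tumours. PD1 is an inhibitory receptor of activated and exhausted T cells. Each tumour was started from 300000 cells. The deleted part of Klf4, the Cre driver, the ages of the mice and any pooling of animals were not stated in the sources used here. Each group held 1 library, so no difference below has a replicate check, an error or a p-value, and each direction describes 1 library against another. The library labelled Klf4 cKO is called the cKO-labelled library below, because its Klf4 level does not check the label.

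Dnmt1 copies methylation onto newly made DNA strands, guided by Uhrf1, which binds hemimethylated sites left by replication. Dnmt3a places methyl groups on unmethylated sites, and the Tet enzymes oxidise them, a step towards their removal. PRC2 methylates histone H3 through its catalytic subunit Ezh2 or the alternative Ezh1, with Eed and Suz12 needed in either case, while Suv39h1 places the mark that HP1 proteins bind in heterochromatin. In mouse CD8 T cells Dnmt3a, Ezh2 and Suv39h1 are known for silencing genes of the naive and memory states during effector differentiation, and loss of Tet2 is known to favour memory cells.

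The promoters are shown for the 5 genes that hold a motif of the E2F factors, which drive genes of DNA replication, and for Eed, the PRC2 subunit without one. Windows run 5′ to 3′ from 250 bases before to 50 bases after an annotated start (RefSeq, GRCm38.p6, the same assembly as mm10), with E2F motifs in capitals.
Dnmt1 start 3, chr9:20952574-20952873, minus strand: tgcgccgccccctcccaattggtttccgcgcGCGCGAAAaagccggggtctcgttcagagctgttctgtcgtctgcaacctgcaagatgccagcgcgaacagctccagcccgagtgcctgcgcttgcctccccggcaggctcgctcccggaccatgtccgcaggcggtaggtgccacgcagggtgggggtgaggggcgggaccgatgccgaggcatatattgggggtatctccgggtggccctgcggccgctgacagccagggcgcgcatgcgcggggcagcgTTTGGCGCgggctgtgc
Uhrf1 start 2, chr17:56304063-56304362, plus strand: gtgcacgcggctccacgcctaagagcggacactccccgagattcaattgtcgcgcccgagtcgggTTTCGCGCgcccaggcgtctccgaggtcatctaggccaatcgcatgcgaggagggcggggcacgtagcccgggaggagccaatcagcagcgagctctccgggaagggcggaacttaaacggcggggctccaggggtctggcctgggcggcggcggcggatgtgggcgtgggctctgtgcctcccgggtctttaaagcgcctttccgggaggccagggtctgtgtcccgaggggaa
Ezh2, chr6:47594981-47595280, minus strand: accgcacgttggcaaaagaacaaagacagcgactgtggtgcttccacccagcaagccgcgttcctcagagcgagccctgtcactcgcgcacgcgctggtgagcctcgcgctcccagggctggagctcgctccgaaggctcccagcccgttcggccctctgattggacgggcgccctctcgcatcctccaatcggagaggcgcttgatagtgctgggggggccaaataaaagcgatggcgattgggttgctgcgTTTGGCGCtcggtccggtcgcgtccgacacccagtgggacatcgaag
Suz12, chr11:79992856-79993155, plus strand: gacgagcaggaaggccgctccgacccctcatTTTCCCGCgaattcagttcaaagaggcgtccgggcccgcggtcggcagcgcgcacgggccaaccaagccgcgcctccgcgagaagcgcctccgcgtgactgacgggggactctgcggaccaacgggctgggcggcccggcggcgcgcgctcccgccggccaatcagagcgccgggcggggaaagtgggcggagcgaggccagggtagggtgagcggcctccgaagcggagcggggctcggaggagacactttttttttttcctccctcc
Suv39h1 start 2, chrX:8074312-8074611, minus strand: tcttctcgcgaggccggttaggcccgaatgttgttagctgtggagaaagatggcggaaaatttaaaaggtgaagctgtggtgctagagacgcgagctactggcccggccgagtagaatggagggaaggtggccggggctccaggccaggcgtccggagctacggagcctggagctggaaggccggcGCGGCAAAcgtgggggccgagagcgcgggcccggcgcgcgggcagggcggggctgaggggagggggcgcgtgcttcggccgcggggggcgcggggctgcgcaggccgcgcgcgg
Eed, chr7:89980927-89981226, minus strand: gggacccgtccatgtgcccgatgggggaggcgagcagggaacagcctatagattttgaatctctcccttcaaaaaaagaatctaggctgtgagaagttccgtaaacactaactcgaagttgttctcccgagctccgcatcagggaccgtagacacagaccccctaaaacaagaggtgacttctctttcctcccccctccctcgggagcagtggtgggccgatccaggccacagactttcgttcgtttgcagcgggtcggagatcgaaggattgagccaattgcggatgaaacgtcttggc

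The letters searched were TTTCCCGC, TTTGGCGC, TTTCGCGC and TTTGCCGC on both strands. RefSeq listed 16 starts for the 10 genes, and 5 of these windows (31.2%) held at least 1 of the motifs, against 2.26% of all 32851 windows in the table and 4.17% of 11064 windows of measured genes. The Dnmt1 window held 2 motifs, which began at positions -219 and 34 from the start, and the Ezh2 motif began at position 4. The core CACCC, which Kruppel-like factors bind, was searched on both strands as well and occurred in 8 of the 16 windows (50%), against 57.5% of all windows and 62.2% of those of measured genes. The windows of Eed, Tet1, Tet2, the first Dnmt1 start and the first and second Dnmt3a starts held neither motif, which says only that these letters are not there. The number of CpG sites in the 16 windows ranged from 2 at the first Dnmt1 start to 57 at Tet2, with a median of 26.5, against 20 in windows of measured genes and 7 in all windows.

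**Figure D1:**
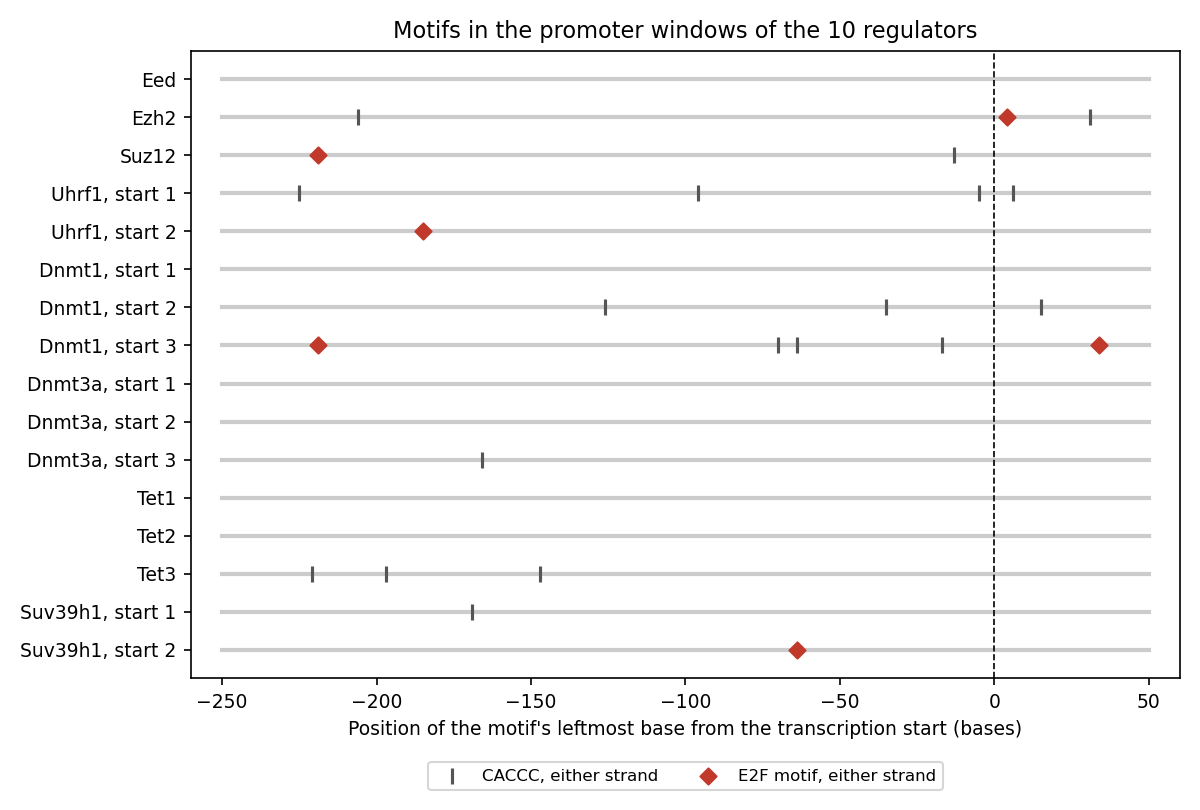
Motif positions in the 16 promoter windows of the 10 genes; the x axis gives the position of the leftmost base of a motif from the transcription start in bases, and each grey line is 1 window. E2F motifs (red diamonds) lie in 5 windows and CACCC (grey ticks) in 8, and the windows of Eed, Tet1, Tet2, the first Dnmt1 start and both upstream Dnmt3a starts are empty.

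Some features of the whole libraries bear on every value below. The median difference of log2(TPM + 1) over the 12570 measured genes was 0.79 for Klf4 over MigRI and 0.74 for the cKO-labelled library over control. Differences are therefore given both as deposited and relative to this median gene, and at least 2-fold means a difference of at least 1 on the log2 scale. Klf4 itself was at 26.05 TPM in the Klf4 library and 8.69 TPM in MigRI, and at 9.28 TPM in the cKO-labelled library and 7.52 TPM in control. Genes whose longest annotated transcript is under 1000 bases held 21.7% of TPM in the Klf4 library and 38.8% in MigRI, and 41.3% in the cKO-labelled library and 54.9% in control. At 1 TPM or more were 13170 genes in the Klf4 library and 11011 in MigRI, and 11937 in the cKO-labelled library and 10542 in control. The part of these differences in the results was not tested beyond centring on genes of similar length, given beside Ezh2 and Suv39h1. The 10 CD8 T cell markers, most of whose level came from Trbc2 and Trbc1 in the Klf4 library and MigRI, summed to 5813 TPM in the Klf4 library and 24626 TPM in MigRI, and to 18556 TPM in the cKO-labelled library and 7972 TPM in control. The largest relative differences among them were those of Cd3d, Cd3g and Cd2, at -5.22, -5.02 and -3.39 on the log2 scale for Klf4 over MigRI. As deposited, 9 of the 10 were higher in the cKO-labelled library than in control, as were 9820 of all 12570 measured genes. Cd3d was lower there, at 1936 TPM against 2580 TPM in control. The 12 macrophage markers, led by Cd74 and Lyz2, summed to 6743 TPM in the Klf4 library and 1609.7 TPM in MigRI, and to 1526 TPM in the cKO-labelled library and 445 TPM in control. The 9 fibroblast and endothelium markers, led by Sparc and Dcn, summed to 1387 TPM in the Klf4 library and 144 TPM in MigRI, and to 253 TPM in the cKO-labelled library and 29.2 TPM in control. The sums for these other cells were thus higher with Klf4 and in the cKO-labelled library, and their part in the results below was not tested. Single markers differed: Pecam1 was at 0.855 TPM in the Klf4 library and 1.46 TPM in MigRI. Adgre1 was at 3.29 TPM in the cKO-labelled library and 3.35 TPM in control. In that pair 4 of 11 measured macrophage markers and 3 of 8 measured fibroblast and endothelium markers lay below the median gene. The 6 dendritic markers did not share a direction. Ccr7, which T cells also express and which is in the list of memory genes too, was at 125 TPM in the Klf4 library and 286 TPM in MigRI, and at 121 TPM in the cKO-labelled library and 21.7 TPM in control. Xcr1 was at 0.565 TPM in the Klf4 library and 0.292 TPM in MigRI, and at 4.58 TPM in the cKO-labelled library and 9.82 TPM in control, and the other 4 markers were at most 2.43 TPM in any library. The markers of NK cells, led by Klri2 and Eomes, summed to 7.04 TPM in the Klf4 library and 9.38 TPM in MigRI, and to 20.3 TPM in the cKO-labelled library and 3.26 TPM in control. Those of B cells, led by Cd79a and Cd79b, summed to 23.7 TPM in the Klf4 library and 6.80 TPM in MigRI, and to 6.34 TPM in the cKO-labelled library and 2.29 TPM in control, with the defining marker Ms4a1 listed at 0 in all 4. The 4 CD4 and regulatory T cell markers, led by Cd40lg and Ikzf2, and those of tumour epithelium, led by Lgals4 and Pmel, summed to at most 13.1 TPM and 9.70 TPM in any library. In bulk samples, fewer cells of a type and less RNA per cell cannot be told apart.

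Ezh2 and Eed were the 2 highest of the 10 genes in 3 libraries, and in the Klf4 library Eed was highest, followed by Uhrf1, Suv39h1 and Ezh2. Summed, Ezh2, Eed and Suz12 stood at 101 TPM in the Klf4 library and 113 TPM in MigRI, and at 74.7 TPM in the cKO-labelled library and 38.6 TPM in control. Dnmt3a, Tet2 and Tet3 were between 0.848 and 3.45 TPM in the 4 libraries. TPM is per length of transcript, so these levels can be set side by side. Any bias by length that remains was not tested, so comparisons and ratios between genes are approximate.

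**Figure D2:**
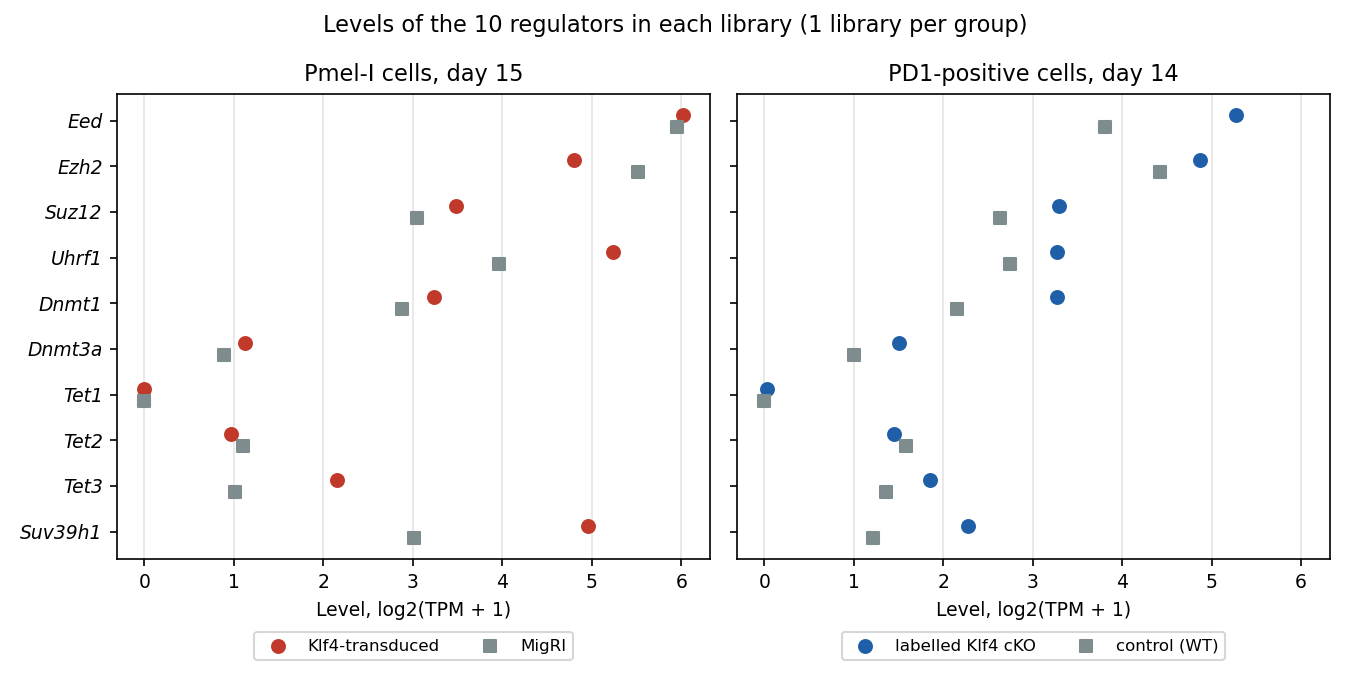
Level of each of the 10 genes as log2(TPM + 1) on the x axis, with 1 point per library; circles are the Klf4 library (left panel) and the cKO-labelled library (right panel), squares are MigRI and control (WT). Ezh2 is lower and Suv39h1 and Uhrf1 are higher in the Klf4 library than in MigRI. In the cKO-labelled library 8 of the 9 measured genes are higher than in control, as are 9820 of all 12570 measured genes.

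The comparison of Klf4 with MigRI asks which transcripts differed when PmelI cells carried added Klf4. As deposited, 3 of the 9 measured genes were at least 2-fold higher in the Klf4 library, namely Suv39h1, Uhrf1 and Tet3, against 43.7% of all measured genes. At least 2-fold lower were 0, against 10.3% of all measured genes. Relative to the median gene 1 was higher, Suv39h1, against 21.4% of all measured genes, and 1 was lower, Ezh2, against 23.6%. The median relative difference of the 9 genes was -0.44, where that of all measured genes is 0 by construction. These counts are no more than the background share and are not a result about the 10 genes as a group.

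Ezh2 (chromosome 6, 47530139 to 47595341, minus strand, mm10), the catalytic subunit of PRC2, was at 27.0 TPM in the Klf4 library and 45.0 TPM in MigRI. Its log2 difference was -0.72 as deposited and -1.51 against the median gene, so it was lower with Klf4 on both scales, and 85.9% of measured genes had a higher difference. The relative difference stayed at least 2-fold lower under 11 of 13 processing alternatives. It was -0.99 without the filter on low genes and -2.03 against genes of similar transcript length, and turned to 1.30 when set against the T cell receptor constant genes Trac, Trbc1 and Trbc2, which were lower in the Klf4 library themselves.

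The other PRC2 core subunits were not lower as deposited, but turned lower under median of ratios scaling and quantile normalization. Eed (chromosome 7, 89954654 to 89980983, minus strand), which binds the mark that PRC2 makes, was at 63.8 TPM in the Klf4 library and 60.8 TPM in MigRI, a relative log2 difference of -0.72. Suz12 (chromosome 11, 79993106 to 80034123, plus strand), the scaffold subunit, was at 10.2 TPM in the Klf4 library and 7.29 TPM in MigRI, a relative log2 difference of -0.36. Both were thus below the median gene but inside 2-fold. The ratio of Eed to Ezh2 was 2.36 in the Klf4 library and 1.35 in MigRI. Ezh1, the alternative catalytic subunit associated with non-dividing cells, was at 5.65 TPM in the Klf4 library and 1.85 TPM in MigRI. The ratio of Ezh2 to Ezh1 was therefore 4.78 in the Klf4 library and 24.3 in MigRI, with Ezh1 3.05-fold higher and Ezh2 1.67-fold lower in the Klf4 library as deposited.

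Suv39h1 (chromosome X, 8061171 to 8074760, minus strand) was at 30.2 TPM in the Klf4 library and 7.10 TPM in MigRI, a 4.25-fold higher level. Its log2 difference was 1.95 as deposited and 1.15 against the median gene, the highest among the 10 genes, yet 17.9% of all measured genes had a higher one. The relative difference was at least 2-fold under 8 of 13 alternatives, and it was 0.64 against genes of similar transcript length and 0.79 against genes of similar level. The annotated antisense gene Gm14820 lies across nearly the whole of Suv39h1, and since the labels do not say that strand was kept, reads of either cannot be told apart. Annotated genes also overlap Ezh2, Eed, Suz12, Dnmt1, Dnmt3a and the Tet genes, but not Uhrf1. How far their reads enter these levels was not tested. Suv39h2, the paralog of Suv39h1, was at 10.4 TPM in the Klf4 library and 9.80 TPM in MigRI. The ratio of Suv39h1 to Suv39h2 was thus 2.91 in the Klf4 library and 0.724 in MigRI.

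Uhrf1 (chromosome 17, 56303321 to 56323486, plus strand) was at 36.7 TPM in the Klf4 library and 14.6 TPM in MigRI, a log2 difference of 1.27 as deposited and 0.48 against the median gene. Dnmt1 (chromosome 9, 20907209 to 20959888, minus strand), the enzyme that Uhrf1 guides, was at 8.44 TPM in the Klf4 library and 6.38 TPM in MigRI, a log2 difference of 0.35 as deposited and -0.44 relative. Uhrf1 was thus higher in the Klf4 library on both scales, while the sign for Dnmt1 turned with the scaling. Under scaling by the median of ratios and quantile normalization the Uhrf1 difference was 0.31 and 0.29, no longer 2-fold. The ratio of Uhrf1 to Dnmt1 was 4.35 in the Klf4 library and 2.28 in MigRI.

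Dnmt3a (chromosome 12, 3806007 to 3914443, plus strand) was at 1.19 TPM in the Klf4 library and 0.848 TPM in MigRI, a log2 difference of 0.24 as deposited and -0.55 against the median gene. Tet3 (chromosome 6, 83362373 to 83459084, minus strand) was at 3.45 TPM in the Klf4 library and 1.02 TPM in MigRI, a log2 difference of 1.14 as deposited and 0.35 relative. Tet2 (chromosome 3, 133463679 to 133545139, minus strand) was at 0.958 TPM in the Klf4 library and 1.15 TPM in MigRI, a log2 difference of -0.14 as deposited and -0.93 relative. Tet3 was therefore above Tet2 in the Klf4 library and below it in MigRI. Tet1 (chromosome 10, 62804570 to 62908996, minus strand) was listed at 0 in both. These 4 genes have long transcripts, from 9179 to 14369 bases for the longest annotated form. At levels this low the pseudocount of 1 understates differences as deposited and can make relative ones too low. Tet1, at 0 in both, thus had a relative log2 difference of -0.79. Under median of ratios scaling the relative differences of Dnmt3a and Tet2 were -0.23 and -0.57.

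**Figure D3:**
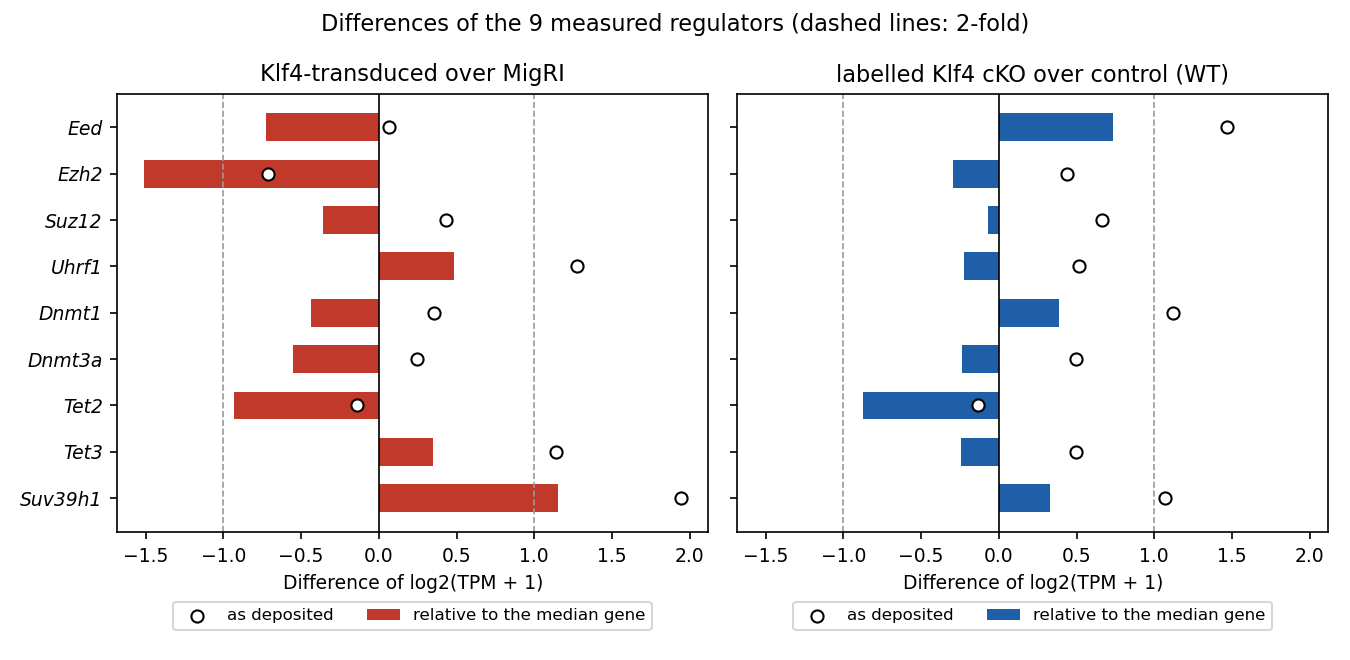
Difference of log2(TPM + 1) on the x axis for the 9 measured genes; bars are relative to the median gene, open circles are as deposited, and dashed lines mark 2-fold. In Klf4 over MigRI the Ezh2 bar (-1.51) and the Suv39h1 bar (1.15) pass 2-fold, while in the cKO-labelled library over control the bars lie between -0.87 and 0.73.

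The pairing of the cKO-labelled library with control asks which transcripts differed in PD1+ cells of mice labelled as lacking Klf4. As deposited, 3 of the 9 measured genes were at least 2-fold higher in the cKO-labelled library, namely Eed, Dnmt1 and Suv39h1, against 38.4% of all measured genes. At least 2-fold lower were 0, against 6.92% of all measured genes. Relative to the median gene 0 were higher, against 12.4%, and 0 were lower, against 16.2%, and the median relative difference was -0.22. All 9 thus lay inside 2-fold of the median gene in this pair. Under median of ratios scaling and quantile normalization none of the 9 was 2-fold higher, and Uhrf1, Ezh2 and Suz12 turned lower in the cKO-labelled library, as did Dnmt3a and Tet3 under median of ratios scaling alone.

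Eed was at 37.8 TPM in the cKO-labelled library and 13.0 TPM in control, a log2 difference of 1.47 as deposited and 0.73 against the median gene, the highest of the 10. The annotation places the gene E230029C05Rik head to head with Eed and overlapping its first bases, and it was listed at 3.27 TPM in the cKO-labelled library and 0.424 TPM in control. Ezh2 was at 28.1 TPM in the cKO-labelled library and 20.5 TPM in control, a log2 difference of 0.44 as deposited and -0.30 relative. Its direction therefore turned with the centring. Suz12 was at 8.84 TPM in the cKO-labelled library and 5.20 TPM in control, a log2 difference of 0.67 as deposited and -0.07 relative. The subunits of PRC2 were not in a constant proportion, since the ratio of Eed to Ezh2 was 1.34 in the cKO-labelled library and 0.635 in control. The ratio of Ezh2 to Ezh1 was 9.01 in the cKO-labelled library and 9.19 in control, with Ezh1 at 3.12 TPM in the cKO-labelled library and 2.23 TPM in control.

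Dnmt1 was at 8.68 TPM in the cKO-labelled library and 3.44 TPM in control, a log2 difference of 1.12 as deposited and 0.39 against the median gene. Uhrf1 was at 8.63 TPM in the cKO-labelled library and 5.73 TPM in control, a log2 difference of 0.52 as deposited and -0.22 relative. The ratio of Uhrf1 to Dnmt1 was thus 0.995 in the cKO-labelled library and 1.67 in control. Suv39h1 was at 3.86 TPM in the cKO-labelled library and 1.32 TPM in control, a log2 difference of 1.07 as deposited and 0.33 relative. Suv39h2 was at 6.65 TPM in the cKO-labelled library and 1.42 TPM in control, so both Suv39 genes were higher in the cKO-labelled library as deposited. The ratio of Suv39h1 to Suv39h2 was 0.581 in the cKO-labelled library and 0.926 in control.

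Dnmt3a was at 1.84 TPM in the cKO-labelled library and 1.01 TPM in control, a log2 difference of 0.50 as deposited and -0.24 against the median gene. Tet3 was at 2.61 TPM in the cKO-labelled library and 1.57 TPM in control, a log2 difference of 0.49 as deposited and -0.24 relative. Tet2 was at 1.74 TPM in the cKO-labelled library and 2.01 TPM in control, a log2 difference of -0.13 as deposited and -0.87 relative. Among the 9 measured genes Tet2 was the 1 that was lower in the cKO-labelled library as deposited, and it was lower in the Klf4 library than in MigRI as well. Of all 12570 measured genes, 2719 were lower in the cKO-labelled library and 3569 in the Klf4 library as deposited. Tet1 was at 0.0198 TPM in the cKO-labelled library and listed at 0 in control.

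The partners of these genes were described from lists drawn up from textbook roles, and the counts in the rest of the text are relative to the median gene and past 2-fold. Over all measured genes these shares were 21.4% higher and 23.6% lower in the Klf4 library than in MigRI, and 12.4% higher and 16.2% lower in the cKO-labelled library than in control, and a list whose share is near these is not a result about that list. Of 22 measured genes in the list of other DNA methylation genes, 6 were higher and 2 lower in the Klf4 library than in MigRI, with a list median of 0.53. In the cKO-labelled library 4 were higher and 3 lower than in control, with a list median of 0.28. The 4 higher ones in the cKO-labelled library were Idh2 and the stress-inducible genes Gadd45a, Gadd45b and Gadd45g, with relative log2 differences of 1.59, 1.42, 1.39 and 1.26. They were above the median gene for Klf4 over MigRI too, at 2.83, 1.85, 0.96 and 0.81 in the same order. Idh2, a mitochondrial enzyme that makes 2-oxoglutarate, the cosubstrate of the Tet enzymes, was at 198 TPM in the Klf4 library and 15.2 TPM in MigRI, and at 19.8 TPM in the cKO-labelled library and 3.13 TPM in control. Its cytosolic paralog Idh1 was at 62.3 TPM in the Klf4 library and 4.37 TPM in MigRI, and at 6.57 TPM in the cKO-labelled library and 1.85 TPM in control, where its relative log2 difference of 0.67 was inside 2-fold. Apobec1, a cytidine deaminase, was at 29.0 TPM in the Klf4 library and 2.77 TPM in MigRI. Hells, a chromatin remodeller needed for DNA methylation of repeats, stood on the other side. It was at 14.2 TPM in the Klf4 library and 23.6 TPM in MigRI, a relative log2 difference of -1.48, and at 12.7 TPM in the cKO-labelled library and 29.5 TPM in control, a relative log2 difference of -1.89. Dnmt3b, the paralog of Dnmt3a, was at 1.38 TPM in the Klf4 library and 0.498 TPM in MigRI, and at 0.790 TPM in the cKO-labelled library and 0.389 TPM in control.

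Among 9 other PRC2 genes, 2 were higher and 2 lower in the Klf4 library than in MigRI, with a list median of -0.54, and 2 were higher and 0 lower in the cKO-labelled library than in control, with a list median of 0.04. Phf19, a Polycomb-like protein that helps PRC2 onto chromatin, was at 11.01 TPM in the Klf4 library and 1.38 TPM in MigRI. Phf1, of the same family, was at 6.58 TPM in the Klf4 library and 0.567 TPM in MigRI. These 2 accessory genes were thus higher in the library in which Ezh2 was lower, but others were not. The 2 lower genes of the list were the accessory genes Epop and Aebp2, with relative log2 differences of -1.19 and -1.02. Mtf2, also of the Polycomb-like family, was at 19.0 TPM in the Klf4 library and 18.4 TPM in MigRI, a relative log2 difference of -0.75. In the other pair the histone-binding subunits, which PRC2 shares with other complexes, stood out. Rbbp7 was at 76.4 TPM in the cKO-labelled library and 20.1 TPM in control, a relative log2 difference of 1.14, and Rbbp4 was at 82.5 TPM in the cKO-labelled library and 21.8 TPM in control, a relative log2 difference of 1.13.

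PRC1 reads the mark that PRC2 makes and adds ubiquitin to histone H2A. The list drawn up for it also held Bap1, Asxl1 and Asxl2, which are not subunits of PRC1. Of the 22 measured genes in this list, 7 were higher and 1 lower in the Klf4 library than in MigRI, with a list median of 0.33. In the cKO-labelled library 3 were higher and 0 lower than in control, with a list median of 0.04. There the share of higher genes is close to the 12.4% of all measured genes. Phc2, a polyhomeotic subunit, was at 53.5 TPM in the Klf4 library and 3.48 TPM in MigRI. Scmh1, a partner of the polyhomeotic proteins, was at 7.78 TPM in the Klf4 library and 0.246 TPM in MigRI. The chromobox reader Cbx8 was at 9.36 TPM in the cKO-labelled library and 0.494 TPM in control. The Klf4 library thus had higher Phc2 and Scmh1, and the cKO-labelled library higher Cbx8.

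Of 12 measured heterochromatin partners of Suv39h1, 0 were higher and 3 lower in the Klf4 library than in MigRI, near the background of 23.6%, with a list median of -0.32. As deposited 8 of the 12 were above 0 there, as were 8919 of all 12570 measured genes. Relative to the median gene 6 of the 12 were above and 6 below. Trim28, a corepressor that recruits Setdb1, was at 37.1 TPM in the Klf4 library and 11.5 TPM in MigRI, and Ehmt2, a methyltransferase of the same histone residue as Suv39h1, was at 13.3 TPM in the Klf4 library and 5.26 TPM in MigRI. In the cKO-labelled library 0 were higher and 2 lower than in control, with a list median of -0.65. As deposited 9 of the 12 were above 0 in that pair, as were 9820 of all 12570 measured genes. Mphosph8, a subunit of a complex that silences repeats, was at 13.7 TPM in the Klf4 library and 34.8 TPM in MigRI, and at 22.9 TPM in the cKO-labelled library and 55.6 TPM in control. It was thus lower in both pairs. Cbx1, which encodes an HP1 protein, was at 80.2 TPM in the Klf4 library and 96.8 TPM in MigRI, and at 64.1 TPM in the cKO-labelled library and 95.2 TPM in control. Cbx3, another HP1 gene, was at 43.1 TPM in the Klf4 library and 55.7 TPM in MigRI, and at 36.4 TPM in the cKO-labelled library and 34.6 TPM in control. Setdb1, another methyltransferase of that residue, was at 3.74 TPM in the Klf4 library and 1.42 TPM in MigRI, and at 1.72 TPM in the cKO-labelled library and 0.965 TPM in control.

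Of 10 demethylases listed as opposing these marks, 2 were higher and 1 lower in the Klf4 library than in MigRI. In the cKO-labelled library 0 were higher and 3 lower than in control. Kdm6b, which removes the PRC2 mark, was at 7.09 TPM in the Klf4 library and 7.24 TPM in MigRI, a relative log2 difference of -0.82. It was at 6.91 TPM in the cKO-labelled library and 12.9 TPM in control, a log2 difference of -0.81 as deposited and -1.55 relative. Ezh2 was higher there as deposited, at 0.44, but lower relative to the median gene, at -0.30. Kdm6a, the paralog of Kdm6b, was at 1.13 TPM in the Klf4 library and 1.49 TPM in MigRI, and at 2.07 TPM in the cKO-labelled library and 2.65 TPM in control. Kdm1a, a demethylase with a different chemistry, acts chiefly on a histone residue other than those of these marks. It was at 49.1 TPM in the Klf4 library and 16.2 TPM in MigRI, and at 13.8 TPM in the cKO-labelled library and 21.8 TPM in control. Kdm4b, which removes the heterochromatin mark, was at 6.73 TPM in the Klf4 library and 0.920 TPM in MigRI, and at 1.84 TPM in the cKO-labelled library and 0.900 TPM in control.

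Levels of Dnmt1, Uhrf1, Ezh2 and Suv39h1 are known to follow the cell cycle, and replication genes are given beside them. Pcna, the replication clamp, was at 259 TPM in the Klf4 library and 400.4 TPM in MigRI, and at 262 TPM in the cKO-labelled library and 66.4 TPM in control. The ratio of Ezh2 to Pcna was 0.104 in the Klf4 library and 0.112 in MigRI, and 0.107 in the cKO-labelled library and 0.308 in control. Pcna was 1 of 6 of the 20 replication genes that were lower in the Klf4 library as deposited, against 14 that were higher. Of all 12570 measured genes 3569 were lower and 8919 higher, so this split is near that of all genes. Set against the whole replication list the Ezh2 difference for Klf4 over MigRI was -1.72. The ratio of Uhrf1 to Pcna was 0.141 in the Klf4 library and 0.0364 in MigRI, and 0.0329 in the cKO-labelled library and 0.0863 in control. The ratio of Dnmt1 to Pcna was 0.0326 in the Klf4 library and 0.0159 in MigRI, and 0.0331 in the cKO-labelled library and 0.0518 in control. The ratio of Suv39h1 to Pcna was 0.117 in the Klf4 library and 0.0177 in MigRI, and 0.0148 in the cKO-labelled library and 0.0199 in control. These ratios rest on Pcna alone. For Klf4 over MigRI its log2 difference was -0.63 as deposited, where the median of the replication list was 1.00. Dnmt1, at 0.35, lay below that median, while Uhrf1, at 1.27, and Suv39h1, at 1.95, lay above it. For the cKO-labelled library over control the list median was 1.29, and all 4 regulators lay below it.

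Of 20 replication genes, 2 were higher and 4 lower in the Klf4 library than in MigRI, with a list median of 0.21, and 3 were higher and 0 lower in the cKO-labelled library than in control, with a list median of 0.55. They did not share 1 direction with Klf4. Tyms, the enzyme of thymidylate synthesis, was at 46.6 TPM in the Klf4 library and 120.3 TPM in MigRI, while Cdc45, of the replicative helicase, was at 47.4 TPM in the Klf4 library and 18.2 TPM in MigRI. Gins2, also of that helicase, was at 106 TPM in the Klf4 library and 189 TPM in MigRI. As deposited, all 3 were higher in the cKO-labelled library than in control, with Cdc45 at 15.7 TPM, against 1.63 TPM in control. Of 16 mitosis genes, 2 were higher and 4 lower in the Klf4 library than in MigRI, and 5 were higher and 1 lower in the cKO-labelled library than in control. Aurka, a mitotic kinase, was at 119.8 TPM in the Klf4 library and 20.4 TPM in MigRI, while Cenpa, a centromeric histone, was at 211 TPM in the Klf4 library and 405 TPM in MigRI. Cenpf, a kinetochore protein, was at 1.30 TPM in the Klf4 library and 6.88 TPM in MigRI. Mki67, the proliferation marker, was at 3.01 TPM in the Klf4 library and 4.76 TPM in MigRI, and at 5.13 TPM in the cKO-labelled library and 3.84 TPM in control.

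Genes that these enzymes are known to silence were also listed. Of 10 naive and memory genes, 3 were higher and 3 lower in the Klf4 library than in MigRI, and 2 were higher and 2 lower in the cKO-labelled library than in control. Klf2, a factor of quiescent T cells, was at 274 TPM in the Klf4 library and 20.2 TPM in MigRI, while Il7r, the interleukin 7 receptor chain, was at 3.57 TPM in the Klf4 library and 21.5 TPM in MigRI. Id3, a regulator of memory cells, was at 342 TPM in the Klf4 library and 41.7 TPM in MigRI. Of 8 germline genes that DNA methylation keeps silent in somatic cells, Dazl, Mael, Asz1 and Sycp1 were listed at 0 in all 4 libraries. Tex101 was at 21.7 TPM in the Klf4 library and 5.05 TPM in MigRI, and at 1.72 TPM in the cKO-labelled library and listed at 0 in control. Tex19.1 was at 14.8 TPM in the Klf4 library and 0.533 TPM in MigRI, and at 0.165 TPM in the cKO-labelled library and 0.675 TPM in control. Sycp3 and Taf7l were listed at 0 in MigRI and control, while Sycp3 was at 1.17 TPM and Taf7l at 0.916 TPM in the Klf4 library. All 4 of these genes were thus higher in the Klf4 library than in MigRI, as were 8919 of all 12570 measured genes as deposited. Sycp3 and Taf7l are not among the measured genes. Cdkn2a, a cell cycle inhibitor and a known target of PRC2, was at 6.55 TPM in the Klf4 library and 2.37 TPM in MigRI, and at 2.81 TPM in the cKO-labelled library and 3.57 TPM in control. Cdkn1a, a related inhibitor, was at 384 TPM in the Klf4 library and 459 TPM in MigRI, and at 373 TPM in the cKO-labelled library and 384 TPM in control. Cdkn2c was at 25.0 TPM in the Klf4 library and 10.5 TPM in MigRI, and at 15.9 TPM in the cKO-labelled library and 4.22 TPM in control.

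**Figure D4:**
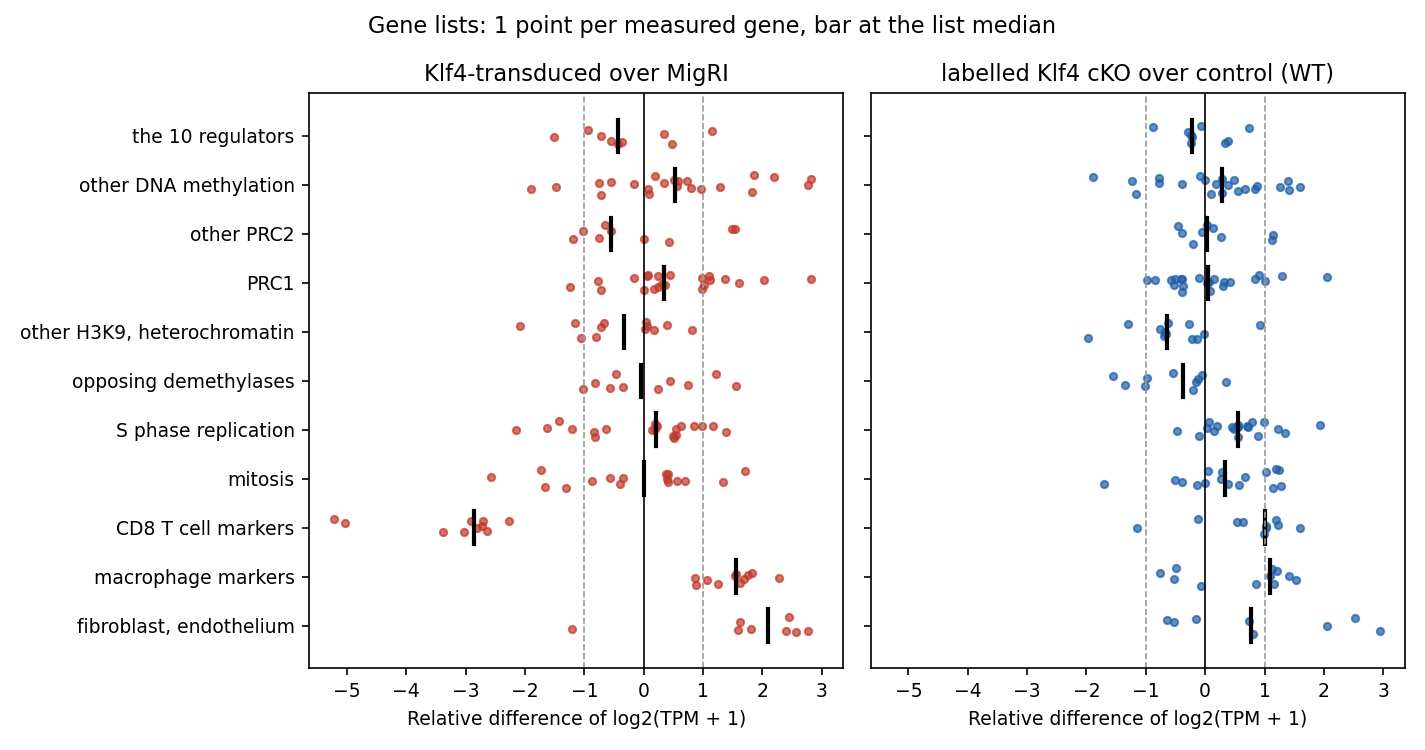
Relative difference of log2(TPM + 1) on the x axis for each measured gene of 11 lists (1 point per gene, vertical spread for display), with a black bar at the list median and dashed lines at 2-fold. The medians of the chromatin lists lie between -0.65 and 0.53 in both panels, while the 10 CD8 T cell markers all lie below -2.2 in Klf4 over MigRI.

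Likeness of pattern was measured as the Euclidean distance between levels of log2(TPM + 1) over the 4 libraries, each gene centred on its own mean, among 7731 genes at a mean of 5 TPM or more. The nearest genes to Ezh2 were Tbcb and Arl4a, at distances of 0.0546 and 0.0905. Those to Suv39h1 were Npepl1 and Prmt5, at 0.0552 and 0.113. Prmt5, a protein arginine methyltransferase, was at 70.0 TPM in the Klf4 library and 17.5 TPM in MigRI, and at 10.5 TPM in the cKO-labelled library and 3.91 TPM in control. The nearest to Dnmt1 were the predicted gene Gm13422 and Clta, at 0.0320 and 0.0616, and those to Dnmt3a were Rabac1 and Mknk2, at 0.0743 and 0.0942. The distances are descriptions over 4 libraries.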

How the data were processed

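The authors deposited 1 file of gene-level TPM per library, with 45777 entries. Per the submitters' processing notes, Trimmomatic, HISAT2, StringTie and edgeR were used with build mm10; roles, versions and annotation were not given in the sources used here. TPM holds no read depth, so neither counting intervals nor detection limits can be stated, and because each library is scaled to 1 total, a few abundant genes depress the rest. In the control file 26 symbols had become calendar dates; 22 were mapped back and 4 genes were left out everywhere. Measured means a mean TPM of at least 1 over the libraries. Differences are of log2(TPM + 1) within an experiment, without a test. Coordinates, lengths and overlaps came from GENCODE vM21, with a length for 93.6% of measured genes. The members and 18 further lists were chosen with earlier results of these data known. From each list the 3 genes with the largest relative difference at 5 TPM or more, or the 2 highest markers of other cells, could be named. Fixed partners could be named too, and all of these were. Dazl, Mael, Asz1, Sycp1, Sycp3, Taf7l, Ms4a1, Gadd45a, Gadd45b, Gadd45g, Trim28, Ehmt2, Epop, Aebp2, Mtf2, Pecam1, Adgre1 and the overlapping E230029C05Rik and Gm14820 were added after values were seen. Scripts (Python 3.11.15, pandas 2.3.3) were tested on simulated data.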

Additional observations from a re-analysis of the deposited data

How the results depend on the processing

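All 13 alternatives were planned, and 283 of 364 values of single genes kept their direction and side of 2-fold, and, where inside 2-fold, lay within 1.5-fold of the reported value. In the following, counts are of members at least 2-fold higher or lower, and medians are of relative log2 differences. For Klf4 over MigRI, the 1 gene higher relative to the median gene became 0 under median of ratios scaling, quantile normalization and centring on genes of similar level, of similar length or of the replication list, and 2 without the filter. The 1 lower became 2 with pseudocount 0.1, with similar length or with the replication list, and 0 without the filter. The 3 higher as deposited became 0, and the 0 lower became 1, under both scalings. The median of -0.44 became 0.025 without the filter and 0.024 at a mean of at least 10 TPM. For the cKO-labelled library over control, the 3 higher as deposited became 1 with pseudocount 5 and 0 under both scalings. The 0 lower relative to the median gene became 1 with pseudocount 0.1 or the replication list, and the 0 higher became 1 without the filter. The median of -0.22 became 0.028 with pseudocount 5, 0.28 without the filter and 0.071 with genes of similar level. With Trac, Trbc1 and Trbc2 as the centre, for Klf4 over MigRI 9 were higher and 0 lower, the median was 2.37 and Ezh2 turned to 1.30, and for the cKO-labelled library over control 6 were lower and the median was -1.24. Apart from the construction of these centrings the cause was not tested. No paired analysis was possible because each group held 1 library, and no library could be left out. The depth is not known.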
